A study of Homo sapiens with 6 samples.

Results

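The plasminogen activation genes described here were the activators PLAU and PLAT, the urokinase receptor PLAUR, the serpins SERPINE2 and SERPINB2, and the sushi-repeat proteins SRPX2 and SRPX. They were measured in UE7T-9, a line of mesenchymal stem cells from human bone marrow that was made immortal with hTERT and the E7 gene of a papillomavirus. These 7 of the 28181 genes listed in the files were chosen by name for their roles, from proposals made with the values of UE7T-9 SHC4 against UE7T-9 Cont already known. Their differences in that comparison are therefore given as a description without a test. The study overexpressed SHC4, an adaptor protein of receptor tyrosine kinase signaling, to ask how it changes the movement of these cells into decellularized bone. RNA was sequenced from 3 libraries of UE7T-9 SHC4 (SHC4 cells, genotype SHC4-OE, infected with a lentivirus carrying SHC4 under the CMV promoter and selected with puromycin) and 3 libraries of UE7T-9 Cont (the controls). The latter have the genotype WT and the name Nontarget in the labels, whereas the study's methods describe cells that carry a GFP vector of the same kind. The labels number the libraries as biological replicates and call the SHC4 cells clones, but do not say whether the libraries came from separate infections, clones or cultures, so errors and p-values cover only the spread between these libraries.

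Plasminogen is an inactive protease precursor that urokinase (PLAU) and tissue-type plasminogen activator (PLAT) cut to plasmin, which degrades fibrin and other matrix proteins and activates further proteases. Urokinase acts mainly at the cell surface, where PLAUR, a receptor with a lipid anchor, holds it. Serpins such as SERPINE2 and SERPINB2 form covalent complexes with the activators and end their activity. SRPX2 is a secreted protein with sushi repeats that has been described as a ligand of the urokinase receptor, and SRPX is its paralog. Stromal and other migrating cells use this system to open paths through matrix.

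The promoters of SRPX2, PLAUR and SERPINB2 are shown first, since PLAUR followed SRPX2 most closely across libraries among the 7 genes and SERPINB2 has the same motif. RefSeq promoter windows on GRCh38.p14 were found for 6 of the 7 genes (8 windows). The 250 bases before each start were searched for TGANTCA, a run of letters that reads the same on both strands and covers the recognition sequence of AP-1 factors. The motif, in which N is any base, was chosen after these sequences had been seen. The shares that follow are therefore a description and not a test. It was present in 3 of the 6 genes, where 8.06% of all genes hold it in at least 1 window and 6.57% of all 35116 windows of this length do. In SRPX2 it began 109 bases before the start, in SERPINB2 102 bases before it, and in PLAUR 186 bases before it, where a longer GENCODE transcript already has an exon. The SERPINB2 motif also lies inside its annotated GENCODE gene (chr18:63871692-63903890), though not in an exon. Each stretch is written 5′ to 3′ on the strand of its gene, and capitals mark the motif. The SRPX2 stretch lies at chrX:100644080-100644106 (plus strand), that of PLAUR at chr19:43670339-43670365 (minus strand) and that of SERPINB2 at chr18:63887593-63887619 (plus strand). The last line gives the whole SRPX2 window ahead of the annotated gene, at chrX:100643949-100644165 on the plus strand.
SRPX2: tatgtcatgcTGAGTCAtaaaaagaag
PLAUR: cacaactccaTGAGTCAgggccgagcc
SERPINB2: agtaaaatgtTGAATCActcaaaggac
SRPX2 upstream: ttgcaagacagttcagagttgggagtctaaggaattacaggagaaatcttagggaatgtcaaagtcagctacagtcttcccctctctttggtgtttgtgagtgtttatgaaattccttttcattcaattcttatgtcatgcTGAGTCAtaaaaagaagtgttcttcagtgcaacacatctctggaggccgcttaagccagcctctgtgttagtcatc
SRPX2 and PLAUR had the same letters in the motif, and SERPINB2 had another base at its centre. A match describes the letters in these windows and says nothing about factors bound there. PLAU, SERPINE2 and SRPX had no match in their windows.

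Values are normalized counts, which are gene counts divided by 1 size factor per library. Total reads ranged from 18144993 to 27721397 per library, and 3 reads corresponded to a normalized count of 2.50 to 3.53. SHC4 itself was 56.5, 157 and 130 in the controls and 134870, 119166 and 155006 in the SHC4 libraries, as the labels give it. All 7 markers of mesenchymal stromal cells were detected, and 6 had a higher mean in SHC4 cells. DESeq2 called 2 of them higher, PDGFRB and LEPR (adjusted p = 0.0171 and 0.00344), where it called 1.05% of all genes higher. limma and edgeR called 0, against 0.0608% and 0.0631% of all genes. In limma 3 of the 7 had an unadjusted p below 0.05, against 3323 of 23040 genes. The part of these markers in the results below was not tested. The summed level of the blood cell markers was 218 to 407 in the controls and 274 to 346 in SHC4 cells. PTPRC was the lowest of them, at 6.82 or less. HLA-DRA was at 72.8 to 262, CD14 at 52.7 to 88.3, CD34 at 39.6 to 52.7 and ITGAM at 12.8 to 42.5 over all libraries. The endothelial sum was 60.0 to 83.6 and 50.1 to 99.9, and the epithelial sum was 29.5 to 43.6 and 15.0 to 31.6. In these lists CDH5 and EPCAM were at most 1.18 and 4.92, while VWF was at 34.4 to 65.3 and CDH1 at 2.50 to 17.6. PECAM1 was 7.80, 11.8 and 12.8 in the controls and 9.67, 36.6 and 38.4 in SHC4 cells. Of these markers of other cell types, 0 were called by any of the 3 tests. DESeq2 called 2.20% of all genes, limma 0.0608% and edgeR 0.0631%. In limma 1 of these markers had an unadjusted p below 0.05. Control replicate 1 correlated more strongly across genes with SHC4 replicate 1 (r = 0.975) than with the other controls (0.967 and 0.962). Its correlations with SHC4 replicates 2 and 3 (0.969 and 0.968) were also above those with the other controls.

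Of the 7 genes, 6 had a lower mean in SHC4 cells than in the controls. The median log2 fold change of the 7 was -0.49, where the median of all 23040 tested genes was -0.004 and 50.3% of them were lower. In bulk RNA, fewer cells with a transcript and less of it per cell cannot be told apart. The groups did not overlap, with all SHC4 libraries lower, for 3 genes (SRPX2, PLAUR and PLAU), against 10.2% of all tested genes. Calling a gene required both an adjusted p (Benjamini-Hochberg) below 0.05 and a log2 fold change beyond 1, up or down. DESeq2 on the recovered reads called 1 of the 7, SRPX2, against 2.20% of all genes in either direction and 1.15% lower. limma called 0 of the 7, against 0.0608% of all genes, and edgeR also called 0, against 0.0631%. Nothing is read from these counts, as the genes were proposed from this comparison.

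**Figure D1:**
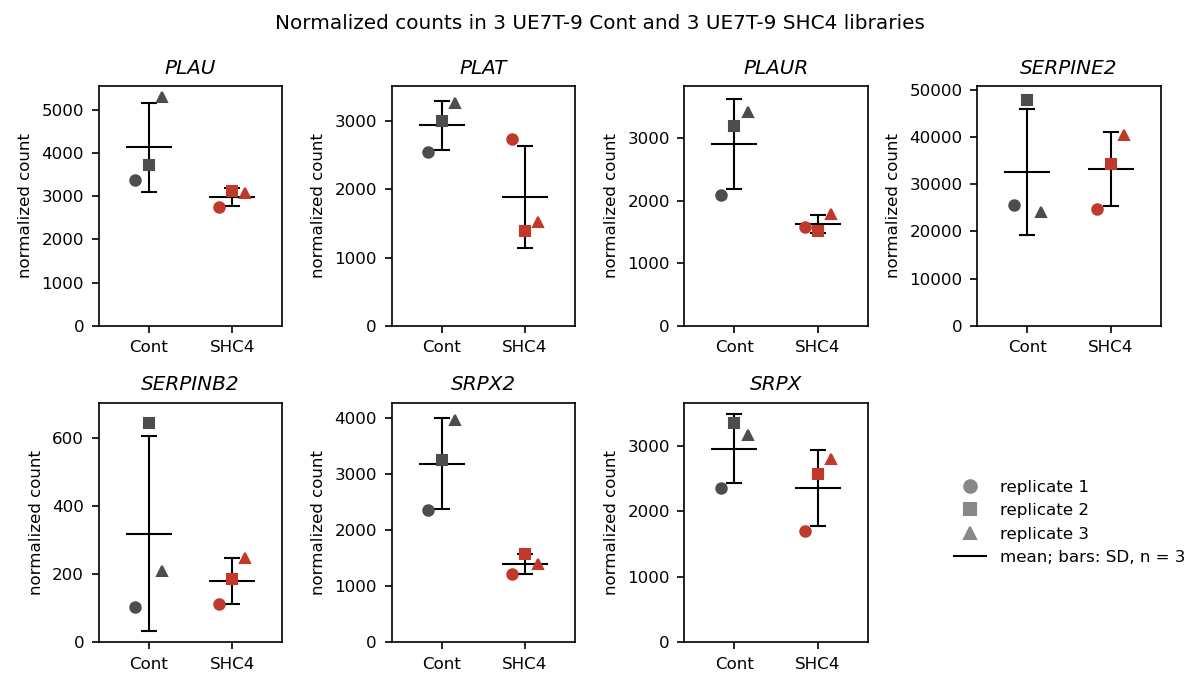
Normalized count (y axis, linear, from 0) of the 7 genes in each library, with circles, squares and triangles for replicates 1, 2 and 3, grey for controls and red for SHC4 cells. Horizontal lines are group means and bars are the SD (n = 3). For SRPX2, PLAUR and PLAU all red points lie below all grey points, while in the other 4 genes the groups overlap.

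Urokinase, PLAU, lies at chr10:73909177-73917497 on the plus strand (GENCODE 29 on GRCh38, matched by identifier ENSG00000122861). Its normalized count was 3385, 3713 and 5296 in control replicates 1, 2 and 3, and 2752, 3129 and 3085 in SHC4 replicates 1, 2 and 3. All SHC4 libraries were below all controls, but the lowest control was only 1.08 times the highest SHC4 value. The means were 4132 ± 1022 and 2988 ± 206 (SD, n = 3 each), 1.38-fold lower in SHC4 cells, and the log2 fold change was -0.44 (standard error 0.17). Control replicate 3 stood above the other controls, and without it the log2 fold change was -0.25. The controls ranged 1.56-fold and the SHC4 libraries 1.14-fold. C10orf55, a gene on the opposite strand across 7529 bases of PLAU, had means of 17.3 and 19.2. PLAU shared none of its 2963 runs of 25 bases with another annotated gene.

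Tissue-type plasminogen activator, PLAT, lies at chr8:42175233-42207724 on the minus strand (ENSG00000104368). It was 2550.0, 2998 and 3261 in the controls, and 2738, 1384 and 1528 in SHC4 cells. SHC4 replicate 1 was within the range of the controls, while replicates 2 and 3 were below all of them. The means were 2937 ± 359.5 and 1883 ± 743 (SD, n = 3 each), 1.56-fold lower, and the log2 fold change was -0.70 (standard error 0.24). Leaving out each library in turn gave -1.01 (without SHC4 replicate 1) to -0.51 (without SHC4 replicate 2). The ratio of PLAU to PLAT reads was 1.33, 1.24 and 1.62 in the controls and 1.01, 2.26 and 2.02 in SHC4 cells. The balance of the 2 activators thus differed more among the SHC4 libraries (0.666, SD) than among the controls (0.202, SD).

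PLAUR, the receptor that holds urokinase at the cell surface, lies at chr19:43646095-43670547 on the minus strand (ENSG00000011422). It was 2081, 3196 and 3416 in the controls, and 1585, 1507 and 1782 in SHC4 cells. The groups did not overlap, and the lowest control, replicate 1, was 1.17 times the highest SHC4 library. The means were 2898 ± 716 and 1625 ± 141 (SD, n = 3 each), 1.78-fold lower, and the log2 fold change was -0.80 (standard error 0.19). It was between -1.03, without control replicate 1, and -0.67, without control replicate 3. Relative to its ligand, the receptor had fewer reads in SHC4 cells, which restates that PLAUR differed more than PLAU. The ratio of PLAUR to PLAU reads was 0.615, 0.861 and 0.645 in the controls and 0.576, 0.482 and 0.578 in SHC4 cells. The ratios of the groups did not overlap, with means of 0.707 ± 0.134 and 0.545 ± 0.0549 (SD, n = 3 each). The lowest control, at 0.615, was close to the highest SHC4 library, at 0.578. Of the 25-base runs of PLAUR, 3.62% also occur in another gene.

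SERPINE2, also known as protease nexin-1, inhibits thrombin as well as both plasminogen activators. It lies at chr2:223975112-224039319 on the minus strand (ENSG00000135919). With 25686, 47932 and 24097 in the controls, and 24852, 34325 and 40406.5 in SHC4 cells, it had by far the most reads of the 7 genes. Control replicate 2 was the highest library of all, and the groups overlapped throughout. The means were 32572 ± 13326 and 33195 ± 7838 (SD, n = 3 each), and the log2 fold change was 0.07 (standard error 0.31). This small difference changed sign to -0.03 with library size scaling, and ranged from -0.11 to 0.39 as each library was left out. The spread among the controls (1.99-fold) was thus larger than the difference between the group means. Urokinase reads per SERPINE2 read were 0.132, 0.0775 and 0.220 in the controls and 0.111, 0.0912 and 0.0763 in SHC4 cells, and these ratios overlapped.

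SERPINB2, or plasminogen activator inhibitor 2, is a serpin found largely inside cells. It lies at chr18:63871692-63903890 on the plus strand (ENSG00000197632). It was 105, 644 and 209 in the controls, and 112, 186 and 247 in SHC4 cells. Control replicate 2 stood alone at 644, and the other 5 libraries lay between 105 and 247. The means were 319 ± 286 and 181 ± 67.7 (SD, n = 3 each), and the log2 fold change was -0.49 (standard error 0.57). Without control replicate 2 the direction turned and the log2 fold change was 0.22. It was -1.08 without control replicate 1 and -0.18 without SHC4 replicate 1, so the value depended on several single libraries. The controls differed 6.12-fold among themselves, the widest spread of the 7 genes. SERPINB10, which overlaps SERPINB2 by 6717 bases on the same strand, had a mean of 0.277. It shares 525 of the 2742 runs of 25 bases of SERPINB2 (19.1%). How reads of the shared runs were assigned is not given in the sources used here.

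SRPX2, the secreted ligand described for PLAUR, lies at chrX:100644166-100675788 on the plus strand (ENSG00000102359). It was 2350.2, 3241 and 3967 in the controls, and 1221, 1578 and 1404 in SHC4 cells. All 3 SHC4 libraries were below all controls, and the lowest control was 1.49 times the highest SHC4 library, the widest gap of the 7 genes. The means were 3186 ± 810.0 and 1401 ± 179 (SD, n = 3 each), 2.27-fold lower in SHC4 cells. The log2 fold change was -1.16 (standard error 0.19) in limma and -1.19 (standard error 0.22) in DESeq2. It ranged from -1.36 without control replicate 1 to -0.99 without control replicate 3. SYTL4, a gene on the opposite strand that overlaps SRPX2 by 1298 bases, had means of 273 and 279 (log2 fold change 0.02, adjusted p = 0.969 in limma).

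SRPX, the paralog of SRPX2, lies at chrX:38149336-38220924 on the minus strand (ENSG00000101955). It was 2352, 3347 and 3159.7 in the controls, and 1701, 2573 and 2799 in SHC4 cells. The groups overlapped, as control replicate 1 was below SHC4 replicates 2 and 3. The means were 2953 ± 529 and 2358 ± 579.7 (SD, n = 3 each), 1.25-fold lower, and the log2 fold change was -0.34 (standard error 0.21). Without SHC4 replicate 1 it was -0.12. In the controls the paralogs had similar numbers of reads, with ratios of SRPX2 to SRPX of 0.999, 0.968 and 1.26. In SHC4 cells the ratio was 0.717, 0.613 and 0.502, below every control. The mean ratio was 1.07 ± 0.158 in the controls and 0.611 ± 0.108 in SHC4 cells (SD, n = 3 each). These ratios are taken within a library, so they do not depend on the scaling between libraries.

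**Figure D2:**
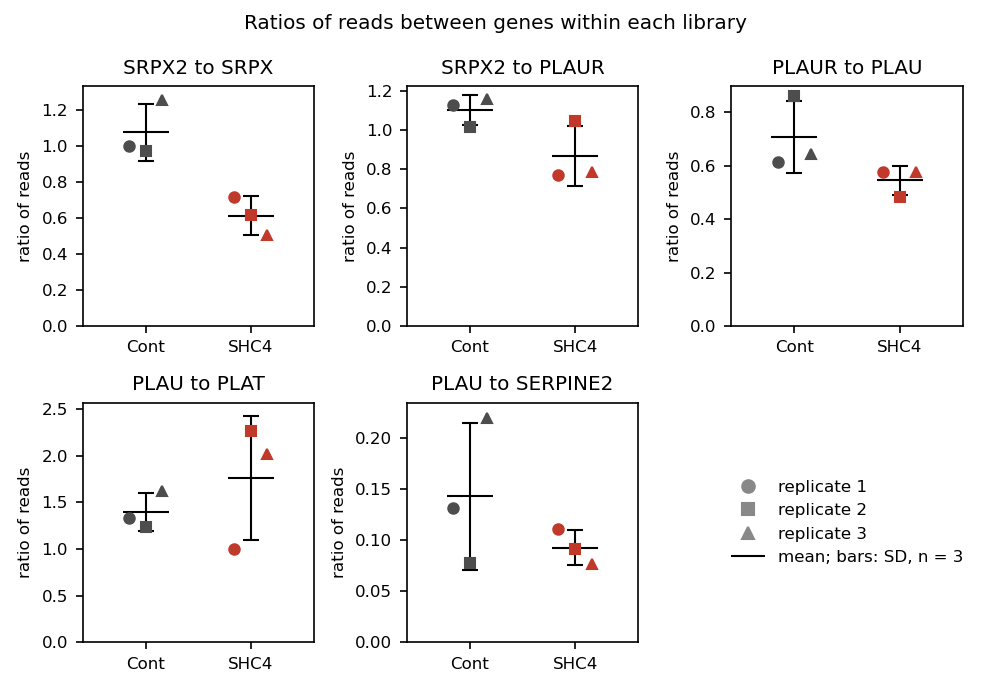
Ratio of reads between pairs of genes within each library (y axis, linear, from 0), with the same symbols, means and SD bars (n = 3) as for single genes. SRPX2 to SRPX and PLAUR to PLAU are lower in all SHC4 libraries than in all controls, and the other 3 ratios overlap between the groups.

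The 7 genes varied together in part. Control replicate 1 was the lowest control for all of them except SERPINE2. SHC4 replicate 1 was the lowest library of its group for PLAU, SERPINE2, SERPINB2, SRPX2 and SRPX, but the highest for PLAT. Across the 6 libraries the log2 values of SRPX2 correlated with those of PLAUR (Pearson's r = 0.951), PLAU (0.910), SRPX (0.730), PLAT (0.650), SERPINB2 (0.455) and SERPINE2 (-0.010). These correlations describe the same 6 libraries and include the difference between the groups. Among 12677 genes with a mean of at least 50, PLAUR ranked 192 in likeness to SRPX2, and 200 genes had r of 0.95 or more. The 5 most alike were EDRF1 (0.998), SINHCAF (0.996), LRRC17 (0.995), LMTK2 (0.994) and CPVL (0.994). LRRC17, which encodes a secreted leucine-rich repeat protein, was 179, 295 and 547 in the controls and 57.1, 79.9 and 71.0 in SHC4 cells. EDRF1 had a narrower range, with 673, 744 and 797 against 515, 562 and 551.

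Ranks among abundant genes are given as a description only, as the genes were proposed from this comparison. They count from the lowest log2 fold change, so they do not show how many genes were higher by as much. Of the 4882 genes whose mean reached 1000, ordered from the lowest log2 fold change, SRPX2 was at rank 23, PLAUR at 47, PLAT at 69, PLAU at 248, SRPX at 424 and SERPINE2 at 3016. SERPINB2 was below that mean and was not ranked. Scaling by library size moved the median of all genes to -0.10, and SRPX2 then had a log2 fold change of -1.26, PLAUR of -0.91, PLAT of -0.81 and PLAU of -0.54. Relative to that median, each of these stayed close to the values given above.

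**Figure D3:**
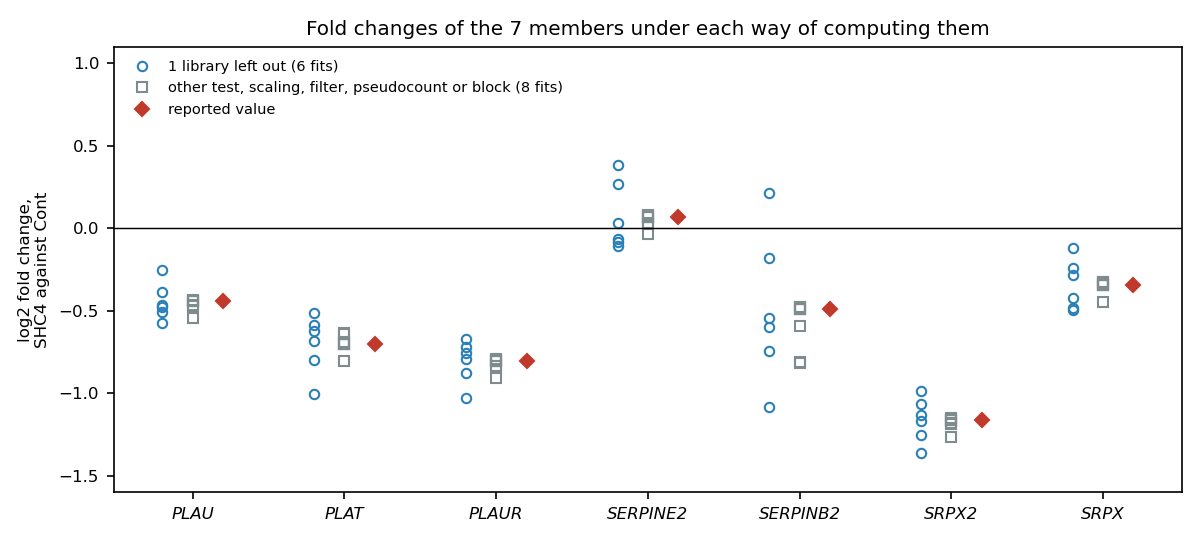
log2 fold change of SHC4 cells against controls (y axis) for the 7 genes, as reported (red diamonds), with each of the 6 libraries left out (blue circles) and under 8 other ways of computing it (grey squares). SRPX2, PLAUR, PLAT, PLAU and SRPX stay below 0 in every fit, whereas SERPINE2 crosses 0, also with library size scaling (-0.03), and SERPINB2 rises to 0.22 without control replicate 2.

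To compare levels between genes, reads were divided by exon length and total reads (RPKM, with lengths from GENCODE 29). In the controls the RPKM was 170 ± 71.3 for SERPINE2, 69.5 ± 16.2 for SRPX, 65.7 ± 20.8 for PLAU, 30.5 ± 9.37 for PLAUR, 20.7 ± 3.98 for PLAT, 19.8 ± 6.36 for SRPX2 and 5.46 ± 4.89 for SERPINB2 (SD, n = 3 each). The order was the same in SHC4 cells, at 161 ± 37.6, 51.2 ± 12.5, 43.7 ± 3.02, 15.7 ± 1.29, 12.3 ± 4.85, 8.01 ± 1.04 and 2.85 ± 1.05 (SD, n = 3 each). In both groups SRPX and PLAU overlapped, as did PLAUR and PLAT. PLAT and SRPX2 overlapped in the controls and touched in SHC4 cells, where the lowest PLAT and the highest SRPX2 library were both at 9.06. SERPINE2 was above and SERPINB2 below all the others in every library. The inhibitor SERPINE2 was thus the most abundant of the 7 transcripts per length, and SRPX2 one of the scarcer ones. The order between them depended on the length used, because PLAUR has 4457 bases over all exons but 1610 in its longest coding transcript. With that length PLAUR in the controls was at 84.5 ± 26.0 and its range overlapped that of PLAU (73.0 ± 23.1; SD, n = 3 each). Together the 7 genes took 0.151% to 0.305% of all reads in a library, most of it SERPINE2 (0.107% to 0.224%).

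The rest of the plasminogen system was taken from lists of 58 other genes, of which 51 were in the files and 45 were tested. limma called 0 of the 45, against 0.0608% of all genes, and edgeR called 0, against 0.0631%. In limma 12 of the 45 had an unadjusted p below 0.05, against 3323 of 23040 genes, and the smallest adjusted p was 0.0963. The lists were drawn up with earlier results of these data known, so these shares are a description. DESeq2 called 4 of the 33 that had an adjusted p, of which 3 were lower and 1 higher, where it called 1.15% and 1.05% of all genes in these directions. By sign 23 were lower and 22 higher, and their median log2 fold change was -0.07. The groups did not overlap for 5 lower and 5 higher genes, where the share over all genes was 10.2% and 9.13%. The other genes of the system were thus divided nearly evenly between the directions. Plasminogen itself, PLG, had reads in 1 library only (1.66 in SHC4 replicate 2), which is below the level of 3 reads.

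Among the other inhibitors (6 tested), the protease trap A2M was at 2.25 ± 0.81 on the log2 scale (standard error; adjusted p = 0.267 in limma) and SERPING1, the C1 inhibitor, at 0.41 (adjusted p = 0.532). A2M differed widely within the controls, at 787, 376 and 51.2. Its log2 fold change was 1.12 without control replicate 3 and 3.08 without control replicate 1, where limma called it (adjusted p = 0.0311), and 1.63 in DESeq2. SERPING1 ranged from 0.16 without SHC4 replicate 2 to 0.74 without SHC4 replicate 1. Of the 4 upstream proteases tested, F12 (coagulation factor XII) had a log2 fold change of -0.39 (adjusted p = 0.806 in limma), which was -0.995 without SHC4 replicate 1, -0.08 without control replicate 1 and 0.09 without SHC4 replicate 2. KLKB1 (plasma kallikrein) was near the level of 3 reads, with 8 reads in the controls and 21 in SHC4 cells in all, and had a log2 fold change of 0.36 without control replicate 1 to 1.75 without control replicate 2. Of the 7 surface proteins that bind plasminogen or its activators, the most abundant were ENO1 and ANXA2, at -0.20 and 0.17 (adjusted p = 0.769 and 0.796 in limma). Without SHC4 replicate 1 they were at -0.46 and -0.07, and without SHC4 replicate 2 at -0.05 and 0.31. KRT8, at 85 and 35 reads in all, had a log2 fold change of -1.95 (adjusted p = 0.334), between -2.89 without SHC4 replicate 1 and -1.11 without SHC4 replicate 3.

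Of the 10 clearance receptors and partners of the urokinase receptor, 7 were lower by sign, where 50.3% of all genes were. An adjusted p in DESeq2 was available for 7 of the 10. Of those it called 2, both lower, where it called 1.15% of all genes lower. FPR1, a formyl peptide receptor that interacts with the urokinase receptor, had 18, 15 and 43 reads in the controls and 3, 3 and 1 reads in SHC4 cells. The ratio of SHC4 cells to controls was 0.0833, with a 95% exact interval of 0.0324 to 0.180 that covers counting error only (adjusted p = 0.0963 in limma and 0.00173 in DESeq2). SORL1, a sorting receptor that binds urokinase and PLAUR, was 122, 263 and 544 in the controls, and 87.9, 87.4 and 88.5 in SHC4 cells (adjusted p = 0.195 in limma and 0.00334 in DESeq2). Its log2 fold change of -1.55 was -2.09 without control replicate 1 and -1.02 without control replicate 3. LRP1, which clears complexes of activators and serpins, and MRC2, a collagen receptor that associates with PLAUR, were the most abundant. They had log2 fold changes of 0.43 and 0.61 (adjusted p = 0.607 and 0.272 in limma). Without control replicate 1 these were 0.85 and 0.86 (adjusted p = 0.0634 and 0.0198), and without control replicate 3 they were 0.13 and 0.41. IGF2R, the next most abundant and named after its values were seen, was lower without overlap. It was 11947, 12811 and 14163 in the controls and 9442, 8598 and 9199 in SHC4 cells. Its log2 fold change was -0.51 in limma (adjusted p = 0.195) and in DESeq2 (adjusted p = 0.00957), short of the fold required for a call.

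Among 11 substrates tested, 10 had an adjusted p in DESeq2. It called PDGFD higher and MMP3 lower, where it called 1.05% and 1.15% of all genes in these directions. PDGFD, a growth factor activated by urokinase, was 225, 152 and 129 in the controls, and 273, 527 and 505 in SHC4 cells (log2 fold change 1.34, adjusted p = 0.135 in limma and 0.00158 in DESeq2). MMP3, a metalloproteinase precursor cut by plasmin, was 2.92, 118 and 66.9 in the controls and 8.79, 3.33 and 9.32 in SHC4 cells (adjusted p = 0.433 in limma and 0.0214 in DESeq2). Its groups overlapped, because control replicate 1 had only 3 reads. The log2 fold change of -2.06 was -3.56 without that library and -1.10 without control replicate 2. The most abundant substrates were FN1, the matrix protein fibronectin, and F2R, the thrombin receptor, with log2 fold changes of 0.69 and 0.75 (adjusted p = 0.698 and 0.207 in limma). Without control replicate 1 these were 1.20 and 0.93 (adjusted p = 0.311 and 0.0373), and without control replicate 3 they were 0.27 and 0.48. All 3 genes reported as partners or regulators of SRPX2 had a higher mean in SHC4 cells. The lysosomal protease CTSB and the transcription factor FOXP2 were at 0.17 and 0.28 (adjusted p = 0.844 and 0.664 in limma). CTSB was at -0.08 without control replicate 3, and FOXP2 ranged from 0.08 without SHC4 replicate 2 to 0.60 without SHC4 replicate 1. The metalloproteinase ADAMTS4, named after its values were seen, was 154, 114 and 82.6 in the controls and 193, 225 and 279 in SHC4 cells, without overlap. Its log2 fold change was 1.01 in limma (adjusted p = 0.170) and 0.99 in DESeq2 (adjusted p = 0.0235), just short of the fold required for a DESeq2 call. Of the 4 tested SERPINB genes beside SERPINB2, SERPINB8 had a log2 fold change of -0.07 and SERPINB7 of -0.66 (adjusted p = 0.868 and 0.514 in limma). SERPINB7 was at -1.19 without control replicate 1, where limma called it (adjusted p = 0.0324), and at -0.37 without control replicate 2. SERPINB8 was at 0.03 without control replicate 2.

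**Figure D4:**
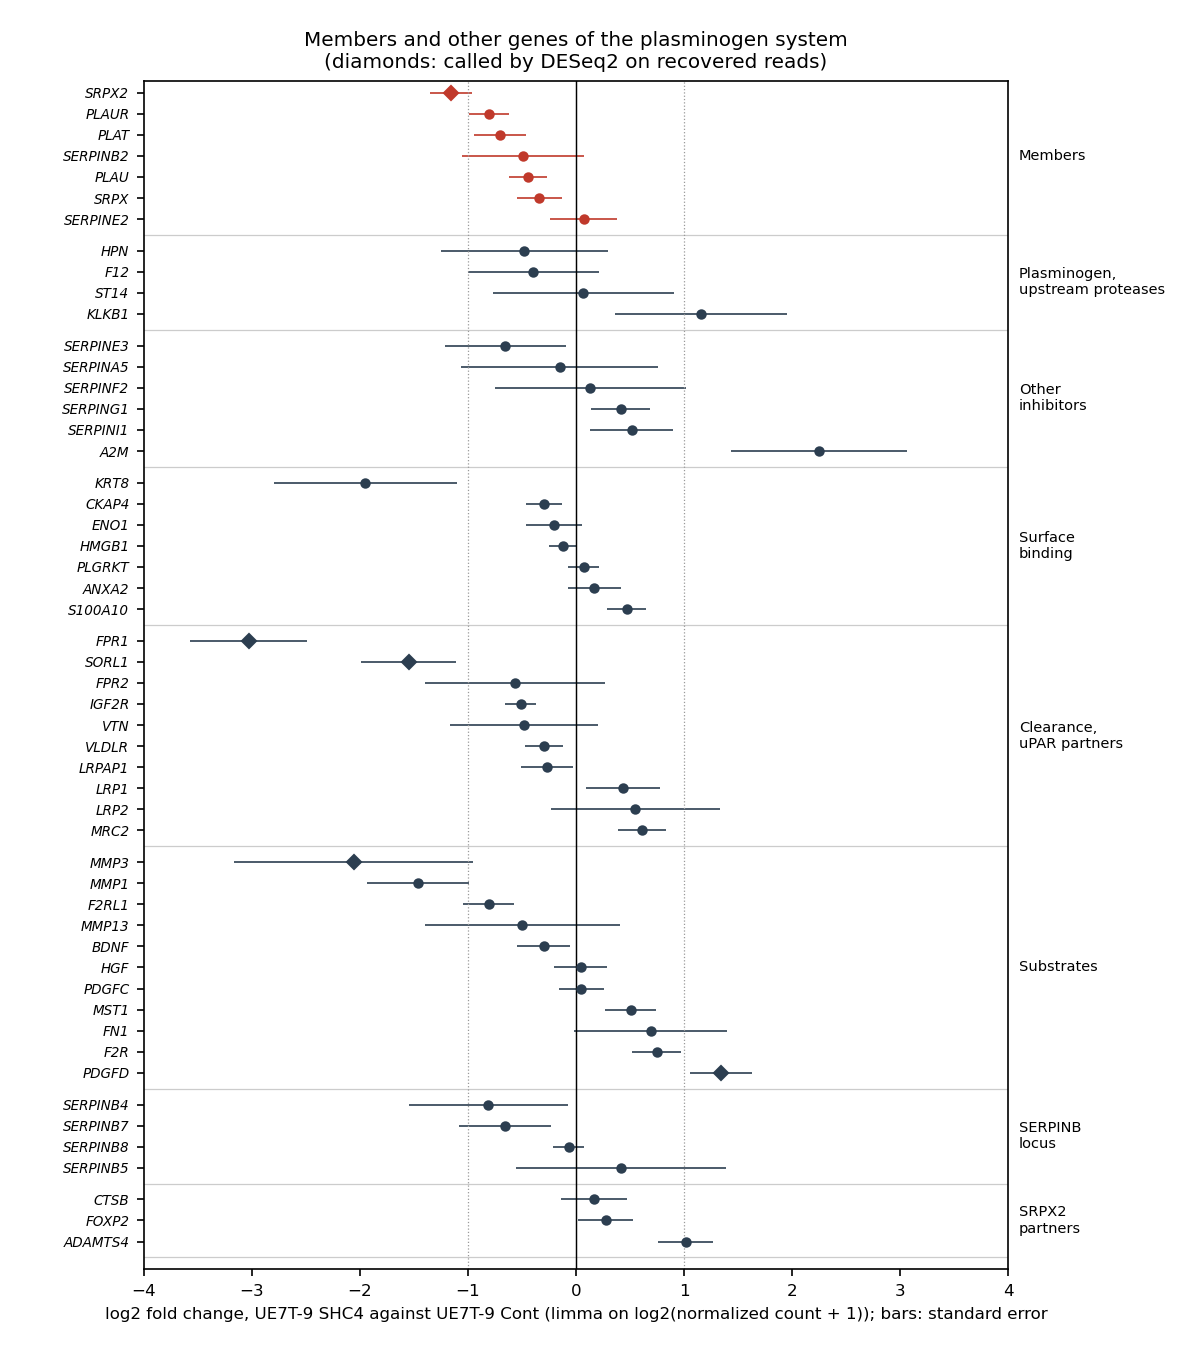
log2 fold change of SHC4 cells against controls (x axis, limma on log2(normalized count + 1)) with its standard error (bars) for the 7 genes (red) and the 45 other genes of the plasminogen system that were tested, grouped by role. Diamonds mark genes called by DESeq2, and dotted lines mark -1 and 1. Of the 7 genes 6 lie below 0, and of the 45 others 23 lie below and 22 above. The 7 genes and the lists were chosen with earlier results of these data known, so nothing is read from these counts.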

How the data were processed

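RNA of 6 UE7T-9 samples (3 UE7T-9 SHC4, 3 UE7T-9 Cont) was extracted with the RNeasy Mini Kit, made into libraries with the NEBNext Ultra RNA kit and sequenced by Novogene (NovaSeq). Groups were taken from the sample titles. Per the submitters' processing notes, HISAT2 2.0.5, featureCounts 1.5.0-p3 and DESeq2 were used. The genome build, annotation and strand setting are not given in the sources used here, so reads of overlapping genes on opposite strands could not be told apart.

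The deposited signal is a normalized count, made by the authors by dividing gene counts by a size factor of the library. Division by the value of 1 read, the smallest above 0 in a library, gave whole reads for 100% of values (tolerance 0.01 reads). Of 28181 identifiers, 27968 had a symbol. Positions are from GENCODE 29 (GRCh38), matched by identifier.

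The main test was limma 3.58.1 (lmFit and eBayes with trend, R 4.3.3) on log2(normalized count + 1) for 23040 genes whose mean was 1 or more, adjusted over all of them by Benjamini-Hochberg. The other 5141 genes were left out. On this scale changes of genes with few reads are understated. A call needed a log2 fold change beyond 1 and an adjusted p below 0.05. limma called 12 genes higher and 2 lower (3323 had an unadjusted p below 0.05). On the recovered reads, DESeq2 1.42.0 called 355 of the 16153 genes with an adjusted p, and edgeR 4.0.16 (quasi-likelihood) called 10 of 15859. The scripts were tested on simulated data. Alternatives were other scalings, filters, a pseudocount of 0.1, a replicate block, no fold change threshold and leaving out each library.

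The 7 genes, the lists and the rule for naming genes were chosen with earlier results of these data known. The rule named all 7 genes, every listed gene called by any of the 3 tests, the 2 most abundant genes of each list, the 3 with the largest log2 fold change in each direction, and the 5 genes most like SRPX2. Any other gene was named after its values were seen. 1 gene of the inhibitor list and 1 blood cell marker are not reported here. No pair of libraries was a duplicate (mean chi-square per gene between pairs of one group 13.1 to 131). Intervals and floors cover counting error only. Protein sequences were not used here.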

Additional observations from a re-analysis of the deposited data

How the results depend on the processing

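The counts of called genes depended on the test and on single libraries. limma called 12 genes higher and 2 lower. DESeq2 called 170 and 185, edgeR 9 and 1, library size scaling gave 22 and 6, TMM scaling 20 and 4, no filter on low values 31 and 9, and a pseudocount of 0.1 gave 11 and 1. A mean of at least 10 gave 11 and 2, and no fold change threshold 13 and 2. Leaving out 1 library gave 1 to 367 higher and 0 to 339 lower. The highest counts came without UE7T-9 Cont replicate 1 (367 and 339), followed by UE7T-9 SHC4 replicate 1 (49 and 14). Without UE7T-9 Cont replicate 2 there were 6 and 0, and without UE7T-9 SHC4 replicate 2 or 3 there were 1 and 1. Of the other plasminogen system genes limma called 0, DESeq2 called 4, and leaving out 1 library gave 0 to 7. The 7 came without UE7T-9 Cont replicate 1 (A2M, ADAMTS4, FPR1, MMP3, PDGFD, SERPINB7 and SORL1), and none was called in any limma fit other than that one. The cause of these differences was not tested.

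The replicate numbers were not shown to pair the samples. Deviations from the group means correlated at 0.148, 0.013 and -0.00696 across 23040 genes for same-numbered libraries, and for replicate 2 the correlation was higher with a library of another number (0.0992). With the replicate block, limma called 25 genes higher and 14 lower, and 0 of the other plasminogen system genes.

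For the 7 genes the sign of the log2 fold change turned in 5 of 98 fits (14 alternatives each), some of which leave the fold change as it is by construction (the replicate block and the filters). SERPINE2 turned negative with library size scaling (-0.03) and without UE7T-9 Cont replicate 1 (-0.06), UE7T-9 Cont replicate 3 (-0.11) or UE7T-9 SHC4 replicate 3 (-0.08), and SERPINB2 turned positive without UE7T-9 Cont replicate 2 (0.22). Leaving out single libraries moved SERPINB2 from -1.08 to 0.22 and PLAT from -1.01 to -0.51. SRPX2 was called by DESeq2, and by limma with the replicate block and without UE7T-9 Cont replicate 1. PLAUR was called by limma without UE7T-9 Cont replicate 1, and PLAT without UE7T-9 SHC4 replicate 1. The counts over all genes in these fits are given above. Nothing is read from these calls, as the genes were proposed from this comparison. With 3 libraries per group and a floor of 3 reads, changes in genes such as FPR1, KLKB1 and KRT8 are known only within wide limits.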
